A study of Mus musculus with 2 samples.

Results

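Monocytes made up 118 of the 12632 kept barcodes in a cortex cell suspension from wild-type (WT) and Fam69c knockout (KO) mice, with 34 monocytes in the WT library and 84 in the KO library. A barcode was counted as a monocyte by its own transcripts. It had to hold 500 genes or more, no more than 20% of its UMIs (unique molecular identifiers, each standing for 1 captured RNA molecule) from mitochondrial genes, and at least 1 UMI of 4 or more of the 8 genes Ly6c2, Ccr2, Plac8, Chil3, Ms4a4c, Ifitm6, Fn1 and Vcan. It also needed a UMI of Csf1r or Lyz2, no UMI of P2ry12, Tmem119, Cd79a, Cd3e or Retnlg, and fewer than 3 of the 6 dendritic cell genes Flt3, Cd209a, Xcr1, Clec9a, Zbtb46 and Wdfy4. The files held 16332 barcodes before the filters.

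Monocytes are short-lived phagocytes that are made in the bone marrow and circulate in blood. In mice, classical monocytes carry the surface antigen Ly6C and the chemokine receptor Ccr2, by which they leave the marrow and enter inflamed tissue, where they can become macrophages or antigen-presenting cells. Non-classical monocytes have lost Ly6C, depend on the transcription factor Nr4a1 and patrol the vessel wall. The healthy brain parenchyma holds few monocytes, and its resident macrophages, the microglia, arise from another lineage.

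Cortices of male mice aged 4 months were pooled by genotype, dissociated, sorted after staining with the dye 7-AAD, and the RNA of each pool was captured in droplets as a single 3' library. The WT group was labelled wild type and the KO group Fam69c knockout. The labels name 7 mice without giving the number per genotype, and the strain, the deleted part of Fam69c and whether vessels were flushed are not given in the sources used here. With 1 library per genotype no test between genotypes was possible: genotype, pool and library cannot be told apart, all intervals are 95% intervals that cover counting error only, and cells are not replicates of a genotype. Fam69c is listed under its symbol Dipk1c, with 2 UMIs in WT and 4 UMIs in KO monocytes. In astrocytes its level was 55.7 CPM (interval 52.5 to 58.9; CPM is the gene's UMIs per 1000000 UMIs of the same cells) in WT and 32.0 CPM (30.1 to 33.9) in KO. The 3' tags may lie outside the deleted part, so these counts do not check the labels.

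The WT library held 57166105 UMIs in 7150 deposited barcodes and the KO library 75473717 UMIs in 9182. After the filters 5152 WT and 7480 KO barcodes remained. The libraries shared 17 barcode sequences, and none of them was a monocyte. WT monocytes held between 914 and 35061 UMIs with a median of 12214.5, and KO monocytes between 871 and 33770 with a median of 10477.5. Mitochondrial transcripts took a median of 2.28% of UMIs in WT and 2.45% in KO monocytes.

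Of the 8 rule markers, 7 were found in most of these cells and in few astrocytes, which should lack them and had median depths of 11094.5 UMIs in WT and 9075 in KO. These genes chose the cells, so the shares are a description. Ccr2, the receptor for the chemokine Ccl2, had a UMI in 85.3% of WT and 84.5% of KO monocytes and in 0.402% and 0.373% of astrocytes. Plac8 was found in 94.1% and 100% of monocytes and in 1.00% and 1.12% of astrocytes. Ms4a4c was found in 82.4% and 86.9% of monocytes and in 0.151% and 0.320% of astrocytes. Chil3, a chitinase-like protein of myeloid cells, was found in 67.6% and 57.1% of monocytes and in 1.61% and 1.44% of astrocytes. Ly6c2, which encodes Ly6C, was found in 64.7% and 56.0% of monocytes and in 1.31% and 0.426% of astrocytes. With each cell thinned to 1500 UMIs, which left 30 WT and 78 KO monocytes, these shares were 66.7% and 67.9% for Ccr2, 83.3% and 76.9% for Plac8, 43.3% and 37.2% for Ms4a4c, 53.3% and 43.6% for Chil3, and 30% and 32.1% for Ly6c2. Fn1 (70.6% and 53.6%, astrocytes 2.66% and 1.70%) and Ifitm6 (79.4% and 86.9%, astrocytes 0.803% and 1.01%) were also common. Vcan was not: it was found in 38.2% of WT and 36.9% of KO monocytes and in 15.9% and 9.88% of astrocytes. Lyz2, the myeloid lysozyme, was present in 100% of monocytes of both libraries. Since the rule chose the cells by these genes, their presence does not test the label. A large fraction of the cells had no Ly6c2 UMI, and these form sets of their own. Ly6c2 lies on chromosome 15 (75108158 to 75111970), and the last 300 bases of its transcript are 93.5% identical to those of its neighbour Ly6c1, so reads of the pair could be split between them.

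The threshold of 4 markers lay among many cells. In WT, 14 barcodes with 3 markers met all other conditions and fell just outside, and 12 with 4 markers fell just inside. In KO the numbers were 29 just outside and 32 just inside. The barcodes just outside held medians of 6233 UMIs in WT and 4409 in KO, against 8745 and 6318 just inside. Csf1r, the receptor for the growth factor that sustains monocytes and macrophages, had a UMI in 10 of 14 WT and 22 of 29 KO barcodes just outside and in 7 of 12 and 26 of 32 just inside. Before the exclusions 54 WT and 140 KO barcodes carried 4 or more markers. Of these, 18 and 43 held a UMI of an excluded gene, mostly the microglial gene P2ry12 (8 and 13) or the neutrophil gene Retnlg (6 and 25), and 3 and 13 held 3 or more dendritic cell genes.

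Monocytes were a larger share of the KO library. They were 0.660% (0.457 to 0.921) of kept WT barcodes and 1.12% (0.897 to 1.39) of kept KO barcodes, and the log2 ratio of the shares was 0.77 (0.18 to 1.39). Among the leukocytes that were not microglia (monocytes, neutrophils, dendritic cells, T cells and B cells), monocytes were 34 of 252 in WT (13.5%, 9.53 to 18.3) and 84 of 403 in KO (20.8%, 17.0 to 25.1), a log2 ratio of 0.63 (0.04 to 1.25). Dendritic cells were also a larger share in KO, with 5 cells (0.0970%) in WT and 27 (0.361%) in KO. Neutrophils were 1.22% and 1.52%, T cells 1.18% and 1.12%, and B cells 1.73% and 1.26% of kept barcodes. The ratio for monocytes was above 0 in each of the 9 alternative settings, but its interval included 0 with at least 1000 genes per barcode (0.59, -0.05 to 1.26) and with at least 5 markers (0.70, -0.04 to 1.49).

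**Figure D1:**
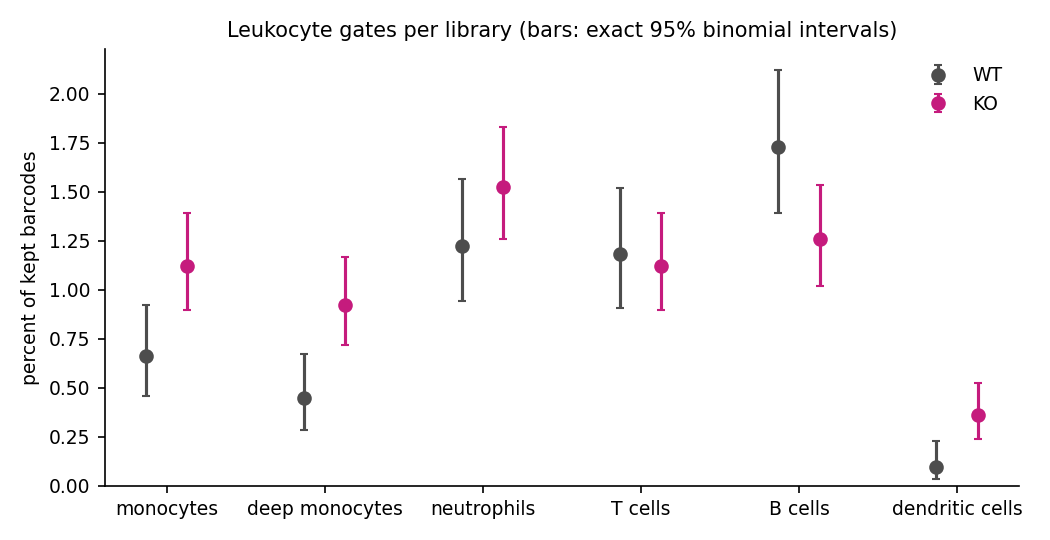
Shares of kept barcodes (percent, vertical axis) for 5 leukocyte gates and for the deep monocytes, with the WT library in grey, the KO library in magenta and bars for exact 95% binomial intervals. Monocytes stand at 0.660% in WT and 1.12% in KO with intervals that overlap (WT up to 0.921%, KO from 0.897%), and dendritic cells are also higher in KO, whereas T cells are at 1.18% and 1.12%.

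The monocytes fell along an axis from classical to non-classical. To describe it, the 23 WT and 69 KO cells with at least 3000 UMIs and a UMI of both Csf1r and Ptprc (CD45, the pan-leukocyte phosphatase) were taken as deep monocytes, a choice made after their values were seen. Deep monocytes were 0.446% (0.283 to 0.669) of kept WT and 0.922% (0.718 to 1.17) of kept KO barcodes. Of the remaining cells, 9 in WT and 10 in KO held under 3000 UMIs. The other 2 in WT and 5 in KO held more UMIs but none of Csf1r, of Ptprc or of both. In KO, the barcodes with 11962, 15210 and 22075 UMIs had no UMI of either gene. They held 39, 88 and 59 UMIs of the astrocyte marker Slc1a2, in that order. All these barcodes met the rule and are counted as monocytes in the shares and sums, and what they are was not tested. Deep cells with a UMI of at least 4 of the 7 non-classical genes Ace, Treml4, Cd300e, Spn, Adgre4, Eno3 and Ear2 were called Ace-type, and the others were split by whether they had a UMI of Ly6c2. The cut lay in a sparse range in WT only: 2 WT and 3 KO cells had 3 of these genes, and 0 WT and 9 KO cells had 4.

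Both libraries held these sets in like proportions. Ace-type cells were 11 of 23 deep monocytes in WT (47.8%, 26.8 to 69.4) and 29 of 69 in KO (42.0%, 30.2 to 54.5). Ly6c2-positive cells were 10 in WT (43.5%, 23.2 to 65.5) and 31 in KO (44.9%, 32.9 to 57.4). The remaining Ly6c2-negative cells were 2 in WT (8.70%) and 9 in KO (13.0%). Depth differed between the libraries within the Ace-type set, with medians of 17141 UMIs in WT and 7650 in KO, but less within the Ly6c2-positive set, with 14770 and 13949. Ace, the angiotensin-converting enzyme (chromosome 11, 105967945 to 105989964), stood at 300.5 CPM in WT and 404 CPM in KO Ace-type cells and at 0 and 8.53 CPM in Ly6c2-positive cells. Only 4 of 11 WT and 6 of 29 KO Ace-type cells had a UMI of Ly6c2, whereas Ccr2 was found in 10 of 11 and 26 of 29 of them.

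**Figure D2:**
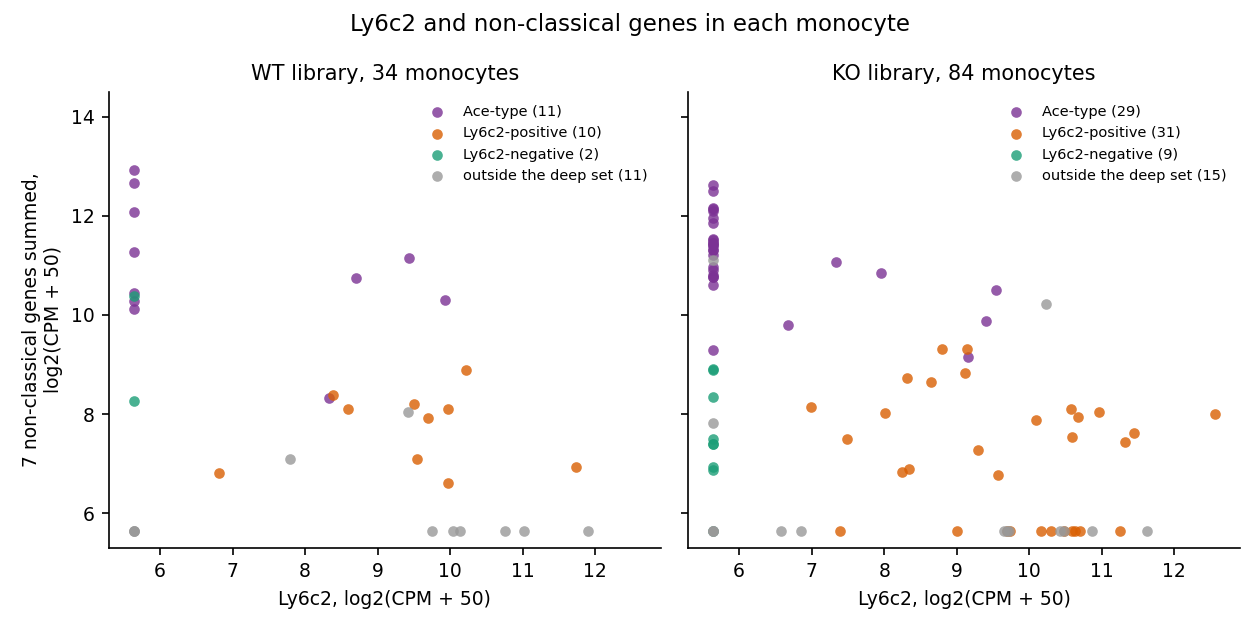
Each point is a monocyte, WT in the left panel and KO in the right, with Ly6c2 (log2 of CPM plus 50) on the horizontal axis and the sum of the 7 non-classical genes (log2 of CPM plus 50) on the vertical axis. Ace-type cells (11 WT, 29 KO) sit high and mostly at the left edge, where Ly6c2 is 0, and Ly6c2-positive cells (10 WT, 31 KO) sit lower and to the right.

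Genes outside the definition separated the sets in both libraries. These are the genes whose lower level in a set, over the 2 libraries, stood furthest above the highest level in the other sets, and they describe the sets without a test. Ace-type cells had more Cd36, a scavenger receptor (177 CPM in WT and 112 in KO, against at most 9.53 CPM in the other sets). They also had more Pecam1, an adhesion molecule (202 and 82.3 CPM, at most 12.8 in the others), Ly6a (286 and 165 CPM) and the survival gene Bcl2 (182 and 74.9 CPM). Ace-type cells also held more endothelial transcripts: the 7 endothelial markers took 0.397% of their UMIs in WT and 0.104% in KO. In Ly6c2-positive cells these markers took 0.0260% and 0.0501%. The part of endothelial transcripts in the genes named here was not tested. Ly6c2-positive cells had more Thbs1, thrombospondin 1 (908 CPM in WT and 373 in KO, at most 71.1 in the others), F13a1, a clotting factor subunit (881 and 810 CPM), and Slpi, a protease inhibitor (167 and 467 CPM). The few Ly6c2-negative cells had more Gpr183, an oxysterol receptor (176 CPM from 2 WT cells and 114 CPM from 9 KO cells). The 2 WT cells held only 17086 UMIs of all genes together, so their level rests on very few UMIs.

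Against the other myeloid cells of the same suspension, the monocytes of both libraries stood apart in non-classical genes and in a few secreted proteins. The comparison cells were gated by their own markers, with 232 WT and 257 KO microglia, 63 and 114 neutrophils, and the dendritic cells above. Ace was 145 CPM (111 to 186) in WT and 126 CPM (104 to 151) in KO monocytes, against 0.777 and 0.834 CPM in microglia. Adgre4, an adhesion receptor, was 166 and 126 CPM, against 0 and 3.34 CPM in microglia. Apoc2, a cofactor of lipoprotein lipase, was 232 and 404 CPM, against 44.7 and 54.3 CPM in neutrophils. F10, coagulation factor X, was 67.8 and 135 CPM and at 0 in neutrophils of both libraries. Treml4 was 145 and 73.9 CPM, against 14.1 and 13.3 CPM in neutrophils. Lyz2 reached 19628 CPM in WT and 16263 CPM in KO monocytes, against 228 and 190 CPM in microglia, 5056 and 2199 CPM in neutrophils, and 10528 and 10137 CPM in border-associated macrophages, of which there were only 2 WT and 4 KO cells. Ifitm3, an antiviral membrane protein, was 3279 and 4210 CPM, against 833 and 2128 CPM in neutrophils, 798 and 2081 CPM in dendritic cells, and 29.5 and 49.2 CPM in microglia. Of the genes in the rule, Ifitm6 was no higher than in neutrophils (767 and 578 CPM in monocytes, 1064 and 2146 CPM in neutrophils), and Chil3 was 2077 and 3100 CPM in monocytes against 2115 and 156 CPM in neutrophils.

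For the comparison of genotypes, UMIs were summed over the monocytes of each library and expressed as CPM. A difference is given as log2 of KO over WT after adding 50 CPM to both, which understates the difference of low genes. A gene was measured where it had at least 50 UMIs over both libraries and at least 50 CPM in either. Of 3519 measured genes, 20 were at least 2-fold higher in KO (0.568%) and 62 at least 2-fold lower (1.76%), so 2.33% differed 2-fold in either direction, and 47.6% were higher by any amount, with a median log2 difference of -0.02. In 39 of the 62 lower genes more than 50% of the WT UMIs came from 1 barcode, and in 7 of the 20 higher genes more than 50% of the KO UMIs did. Without the barcode with the most UMIs of each gene in each library, 18 genes were higher and 9 lower. Among the deep monocytes, 20 of 3413 measured genes were at least 2-fold higher (0.586%) and 88 lower (2.58%).

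Transcripts of other cell types moved with some of these differences. The 12 neutrophil markers took 2.15% of WT and 0.117% of KO monocyte UMIs, and 97.7% of the WT amount came from 1 barcode. That barcode set the genes with the lowest ratios: Camp was 2706 CPM in WT and 0 in KO, Ngp 1911 and 0 CPM, and Ltf 905 and 0 CPM, with at most 2 WT cells holding a UMI of any of them. Neutrophil markers took 47.7% of the UMIs of that barcode, which had 0 UMIs of Ccr2 and Csf1r. Whether it is a neutrophil was not tested. Retnlg, the neutrophil gene that the rule excludes, was at 0 by the rule, so its absence does not show what the barcode is. The 6 erythroid markers took 0.359% and 1.16% of UMIs, with 84.6% of the KO amount in 1 barcode. The 7 endothelial markers took 0.207% and 0.0658%, the 10 astrocyte markers 0.322% and 0.244%, and the 8 oligodendrocyte markers 0.268% and 0.0943%. A single barcode held 57.2%, 50.8% and 76.8% of these WT amounts, in that order. Other genes among the 12 lowest ratios also rested on 1 WT barcode. It held 100% of the WT UMIs of Ackr1 and of Selp, 96.4% for Serpinb9, 92.3% for Vcam1 and 91.1% for Igfbp7, against 17.1% for Hspa1a. The 8 T cell markers took 0.000702% and 0.000217%. The 11 microglia markers took 0.0774% and 0.0703%, with P2ry12 and Tmem119 at 0 by the rule. Among the 9 dendritic cell markers, which took 0.00678% and 0.0234%, Xcr1, Clec9a, Ccr7 and Itgae were at 0 in both libraries. The part of these transcripts in the differences between genotypes was not tested.

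The genes of MHC class II antigen presentation were higher in KO monocytes. These encode the alpha and beta chains that display peptides to CD4 T cells (H2-Aa, H2-Ab1, H2-Eb1), the invariant chain Cd74, the exchange factor H2-DM and the transcription factor Ciita that switches the group on. Of 10 genes in the list 7 were measured, all 7 were higher in KO, 4 of them at least 2-fold, and their median log2 difference was 1.63. H2-Aa was 615 CPM (543 to 694) in WT and 2435 CPM (2336 to 2538) in KO, a log2 difference of 1.90. H2-Eb1 was 447 and 1726 CPM (1.84), Cd74 was 1738 and 5924 CPM (1.74), and H2-Ab1 was 744 and 2398 CPM (1.63). H2-DMb1 was 133 and 291 CPM, H2-DMa 180 and 306 CPM, and Ciita 32.7 and 66.3 CPM. A single WT barcode held 43.0% of the WT UMIs of H2-Aa and 52.4% of those of H2-Eb1, and without the top barcode of each gene in each library the list median was 2.14. In the other cells that carry it, H2-Aa was 8437 CPM in WT and 8683 CPM in KO dendritic cells and 4472 and 3433 CPM in B cells. In microglia it was 3.88 and 5.84 CPM.

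The promoters of H2-Aa and H2-Eb1 are shown because the genes of this group share short control elements bound by the factors that recruit Ciita. Each sequence is the 150 bases before the RefSeq gene start on GRCm38.p6, read 5′ to 3′ on the strand of the gene, and capitals mark the Y box CTGATTGG. The H2-Aa window is chr17:34287824-34287973 (minus strand) with the Y box starting 51 bases before the gene, and the H2-Eb1 window is chr17:34305717-34305866 (plus strand) with the Y box starting 62 bases before it.
H2-Aa: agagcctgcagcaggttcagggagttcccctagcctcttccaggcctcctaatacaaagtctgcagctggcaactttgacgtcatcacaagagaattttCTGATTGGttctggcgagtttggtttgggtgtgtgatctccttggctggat
H2-Eb1: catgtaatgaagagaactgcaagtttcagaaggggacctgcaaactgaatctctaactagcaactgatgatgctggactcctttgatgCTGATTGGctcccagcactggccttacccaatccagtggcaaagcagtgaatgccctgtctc
The 8 letters of the Y box, searched on both strands, occur in 919 of 27025 RefSeq promoter windows of this length (3.40%). A match is a match of letters only.

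Class II transcripts came from a minority of cells in both libraries. H2-Aa had no UMI in 29 of 34 WT and 55 of 84 KO monocytes, so that the median cell was at 0 CPM in both, and the highest cells stood at 10728 CPM in WT and 17429 CPM in KO. The ranges of the libraries overlapped. H2-Aa reached 1000 CPM, a value chosen after the data were seen, in 3 of 34 WT (8.82%, 1.86 to 23.7) and 18 of 84 KO monocytes (21.4%, 13.2 to 31.7), and these intervals overlap. Summed over those cells, H2-Aa was 5060 CPM (4450 to 5730) in WT and 9788 CPM (9383 to 10205) in KO, so that both the share of such cells and their level were higher in KO. At least 1 UMI of 2 or more of H2-Aa, H2-Ab1 and H2-Eb1 was found in 5 WT (14.7%, 4.95 to 31.1) and 27 KO monocytes (32.1%, 22.4 to 43.2), and in 13.3% and 25.6% after thinning. H2-Aa had a UMI in 14.7% of WT and 34.5% of KO monocytes, against 4.22% and 3.09% of astrocytes. For Cd74 the count was 15 of 34 WT and 53 of 84 KO cells, with a median cell at 0 CPM in WT and 202 CPM in KO.

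By cell set, class II genes were higher in KO in Ace-type and Ly6c2-negative cells and mostly lower in Ly6c2-positive cells, a contrast between sets that was not tested. Within the Ace-type set 6 of 6 measured class II genes were higher in KO, 5 of them at least 2-fold, with a median of 2.32, where 2.29% of 1574 measured genes were 2-fold higher, 6.35% 2-fold lower and 58.4% higher by any amount. H2-Aa was 310 CPM in WT and 2186 CPM in KO Ace-type cells, and Cd74 was 921 and 6318 CPM. Within the Ly6c2-positive set 1 of 6 was higher, with a median of -0.79, where 52.6% of 1906 measured genes were higher. H2-Aa was there 1335 CPM in WT, from 2 of 10 cells, and 761 CPM in KO, from 9 of 31 cells. In Ly6c2-negative cells H2-Aa was at 0 in both WT cells and 10549 CPM in KO, where 7 of 9 cells had a UMI and the median cell stood at 11111 CPM. Of the 18 KO cells at 1000 CPM or more, 7 were Ace-type, 6 Ly6c2-negative, 4 Ly6c2-positive and 1 lay outside the deep set.

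**Figure D3:**
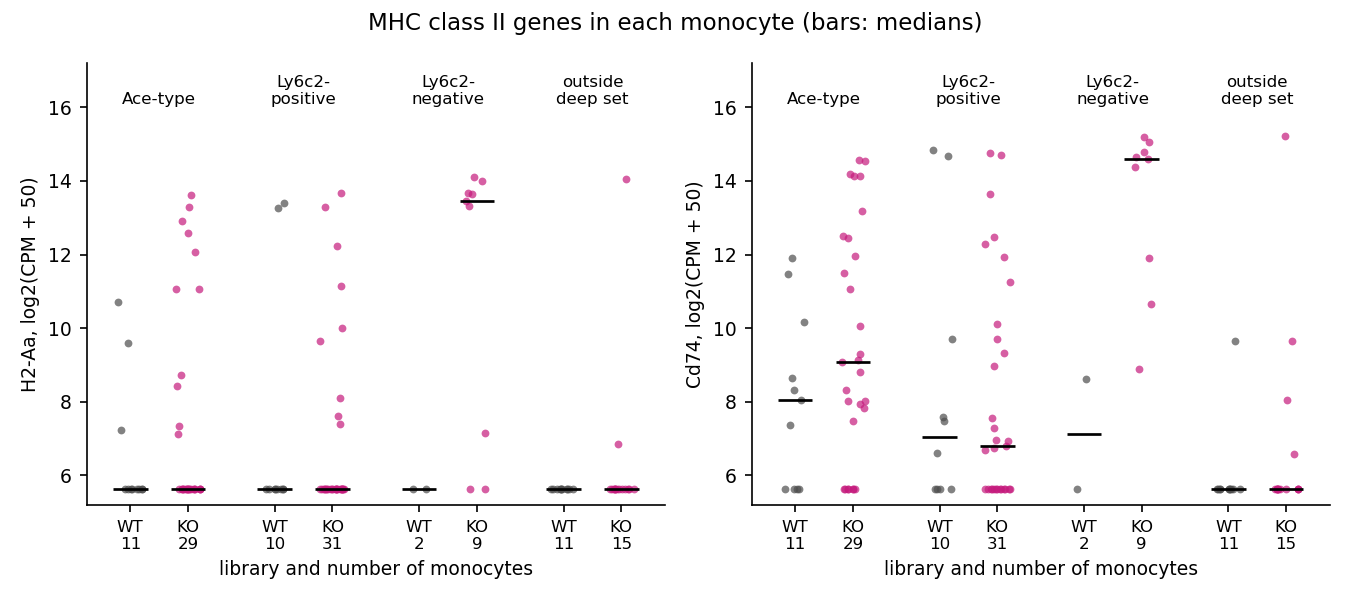
H2-Aa (left) and Cd74 (right) in each monocyte, as log2 of CPM plus 50, by cell set and library, with the number of cells under each column and bars for medians. The H2-Aa median is at 0 CPM in every column except the 9 Ly6c2-negative KO cells, and of the 3 WT cells at 1000 CPM or more, 1 (at 1626 CPM) lies below the lowest of the 18 such KO cells (2071 CPM).

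Dendritic cell genes were present in part of the class II cells. Of the 18 KO cells, 13 had a UMI of at least 1 of the 6 dendritic genes and 5 had 2 of them, the most the rule admits. At least 1 was also found in 3 of the 3 such WT cells, and in 16 of all 34 WT and 37 of all 84 KO monocytes. Cd209a, a lectin of monocyte-derived and conventional dendritic cells, had a UMI in 5 of the 18, and in 7 of all 84 KO and 1 of all 34 WT monocytes. Flt3, the growth factor receptor of the dendritic lineage, was 31.1 CPM in the 18 cells against 131 CPM in the KO dendritic cells, and Xcr1 and Clec9a were at 0. Lyz2 was 8231 CPM in the sum of the 18 cells and 1149 CPM in KO dendritic cells, and Csf1r had a UMI in 17 of 18. The 18 cells were not alike in Lyz2. The 5 with Cd209a held 4, 5, 14, 31 and 309 Lyz2 UMIs, out of 11312, 13997, 13885, 16786 and 13512 UMIs in that order. The rule used Lyz2, Csf1r and the dendritic genes, so these values describe the cells and do not test what they are. In these cells and in the other 66 KO monocytes, the complement subunit gene C1qa was 249 CPM (8 of 18 cells) and 11.5 CPM (3 of 66). Without every barcode that held a UMI of Cd209a or Flt3, 6 of 6 measured class II genes were still higher in KO, with a median of 0.87. With at least 5 rule markers the median was 0.68 (6 of 6 higher), with 1 UMI of each excluded gene allowed it was 0.82 (7 of 8), and with the sets mixed equally in both libraries it was 1.21. Over all 17 alternatives H2-Aa ranged from 0.90 to 2.47.

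Hspa1a and Hspa1b, the inducible members of the Hsp70 chaperone family, were lower in KO monocytes. Hspa1a was 260 CPM (214 to 313) in WT, where 13 of 34 cells had a UMI and the highest stood at 1355 CPM, and 18.5 CPM (10.8 to 29.6) in KO, where 10 of 84 cells had a UMI and the highest stood at 580 CPM. The median cell was at 0 in both libraries and the ranges overlapped. The log2 difference was -2.18, and -3.24 to -1.60 over the alternatives. Hspa1b was 196 CPM in WT, from 13 cells, and 22.8 CPM in KO, from 13 cells, with a log2 difference of -1.76. In Ly6c2-positive cells 7 of 10 WT and 5 of 31 KO cells had a UMI of Hspa1a, and in Ace-type cells 5 of 11 and 2 of 29.

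Most of the other heat shock genes differed little. Of 9 measured genes 7 were lower in KO, 2 of them at least 2-fold, with a median of -0.09, which trimmed-mean scaling turned to 0.13. The constitutive chaperone Hspa8 was 1459 and 1411 CPM, Hsp90ab1 was 1408 and 1315 CPM, and Hspa5 of the endoplasmic reticulum was 702 and 678 CPM. Hsp90aa1 was lower, at 566 and 319 CPM (-0.74, and -1.23 to -0.29 over the alternatives). Outside monocytes, Hspa1a was 272 CPM in WT and 18.1 CPM in KO dendritic cells, 64.1 and 3.28 CPM in T cells and 141 and 107 CPM in microglia. It was 13.3 and 11.3 CPM in B cells, and among border-associated macrophages it was found in KO only (976 CPM, 2 of 4 cells). In astrocytes it was 3.86 CPM in WT and 4.45 CPM in KO, with a UMI in 65 of 1992 and 137 of 3754 cells.

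The promoters of this pair are shown because they are nearly the same sequence. Both windows are the 150 bases before the RefSeq start on GRCm38.p6, minus strand, at chr17:34972157-34972306 for Hspa1a and chr17:34959239-34959388 for Hspa1b, and capitals mark the heat shock element GAANNTTC, which starts 104 bases before each gene and is the core of the sequence bound by heat shock factors.
Hspa1a: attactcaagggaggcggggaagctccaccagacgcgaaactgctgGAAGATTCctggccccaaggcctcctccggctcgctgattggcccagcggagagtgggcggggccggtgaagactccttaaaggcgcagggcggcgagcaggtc
Hspa1b: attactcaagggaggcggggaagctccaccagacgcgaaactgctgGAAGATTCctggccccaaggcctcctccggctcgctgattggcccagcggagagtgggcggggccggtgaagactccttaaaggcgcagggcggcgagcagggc
The windows are identical at 149 of 150 bases. GAANNTTC reads the same on both strands and occurs in 1087 of 27025 promoter windows (4.02%). The H2-Aa window above holds 1 match that overlaps its Y box, the H2-Eb1 window holds none, and each Hspa1 window also holds 1 CTGATTGG. The last 300 bases of the 2 transcripts, where the 3' tags fall, are 52.8% identical, so these counts can be told apart by their ends.

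Jun and Klf6, genes induced early by many stimuli including cell handling, were lower in KO monocytes and in the other cells as well. Jun was 711 CPM in WT and 290 CPM in KO monocytes, with a median cell at 387 and 179 CPM, and a log2 difference of -1.16. It was lower in KO in each of the 9 gates, monocytes included, with 5862 and 4524 CPM in microglia, 339 and 157 CPM in T cells, and 171 and 132 CPM in astrocytes. Klf6 was 454 and 200 CPM in monocytes (-1.01) and was lower in each of the 9 gates too, but by little in some. It differed by -0.06 in dendritic cells (interval -0.70 to 0.61), -0.05 in astrocytes (-0.23 to 0.004) and -0.23 in neutrophils (-0.55 to 0.03). Other immediate early genes went the other way in monocytes, and over the list 7 of 13 measured genes were higher, with a median of 0.04: Fos was 1785 and 2437 CPM, Junb 968 and 1593 CPM and Dusp1 861 and 1459 CPM. The count for the list is near the share over all measured genes, of which 47.6% were higher by any amount.

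Among genes of classical monocytes outside the rule, 13 of 18 measured were higher in KO, 2 of them at least 2-fold, with a median of 0.21. The first of these was Tmem176b, an endosomal ion channel, at 164 and 469 CPM (1.28). The other was Cd14, the co-receptor for bacterial lipopolysaccharide, at 124 CPM (16 of 34 cells, highest 2029 CPM) in WT and 322 CPM (43 of 84 cells, highest 2007 CPM) in KO (1.09). For Cd14 the sets disagreed. In Ly6c2-positive cells it was 73.4 CPM in WT (5 of 10 cells) and 503 CPM in KO (25 of 31 cells). In the 11 WT cells outside the deep set, 7 had a UMI and the median cell stood at 500.2 CPM, above the 15 KO cells outside it, whose median was 0. With each cell thinned to the same depth the difference for Cd14 was -0.32, and with each cell weighed the same it was 0.08. Microglia had 299 and 456 CPM of Cd14, and 10 of 1992 WT and 30 of 3754 KO astrocytes had a UMI.

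Within Ly6c2-positive cells, where library depths were close, 38 of 1906 measured genes were at least 2-fold higher in KO (1.99%) and 14 lower (0.735%). The higher genes spread over many cells included Ccr1, a receptor for inflammatory chemokines, at 40.1 CPM in WT (4 of 10 cells) and 168 CPM in KO (23 of 31 cells). They also included Igfbp6, a growth factor binding protein, at 6.68 CPM (1 of 10) and 113 CPM (18 of 31), and Cdkn1a, the cell cycle inhibitor p21, at 66.8 CPM (6 of 10) and 194 CPM (22 of 31). Over all monocytes the log2 difference of Igfbp6 was only 0.25. Its highest WT cell, outside the deep set, stood at 948 CPM and its highest KO cell at 414 CPM. Lower genes in Ly6c2-positive cells included Nfkbiz, a regulator of NF-kB target genes, at 267 and 59.7 CPM, and Itgal, the alpha chain of the integrin LFA-1, at 307 and 126 CPM.

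Saa3, an acute phase serum amyloid made by activated macrophages (chromosome 7, 46711998 to 46715700), was found only in KO monocytes. It had 0 UMIs in 34 WT cells, where a floor of 3 cells is 8.82% and the exact upper limit of the share is 10.3%, and 256 UMIs in 13 of 84 KO cells (278 CPM), of which 12 were Ly6c2-positive. Against a floor of 3 UMIs in the WT sum (7.02 CPM) it was at least 39.6-fold higher in KO, and the exact interval of the log2 ratio of UMIs started at 4.9999. Within Ly6c2-positive cells, of which WT had only 10, it was at least 26.7-fold higher against the same floor of 3 UMIs (20.03 CPM), and a floor of 3 cells is there 30% of WT cells. A single KO barcode held 52.0% of its UMIs, at 8231 CPM, and without it the log2 difference was 1.88 in place of 2.71. Among the other gates only astrocytes had any, with 3 UMIs in WT and 7 in KO.

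**Figure D4:**
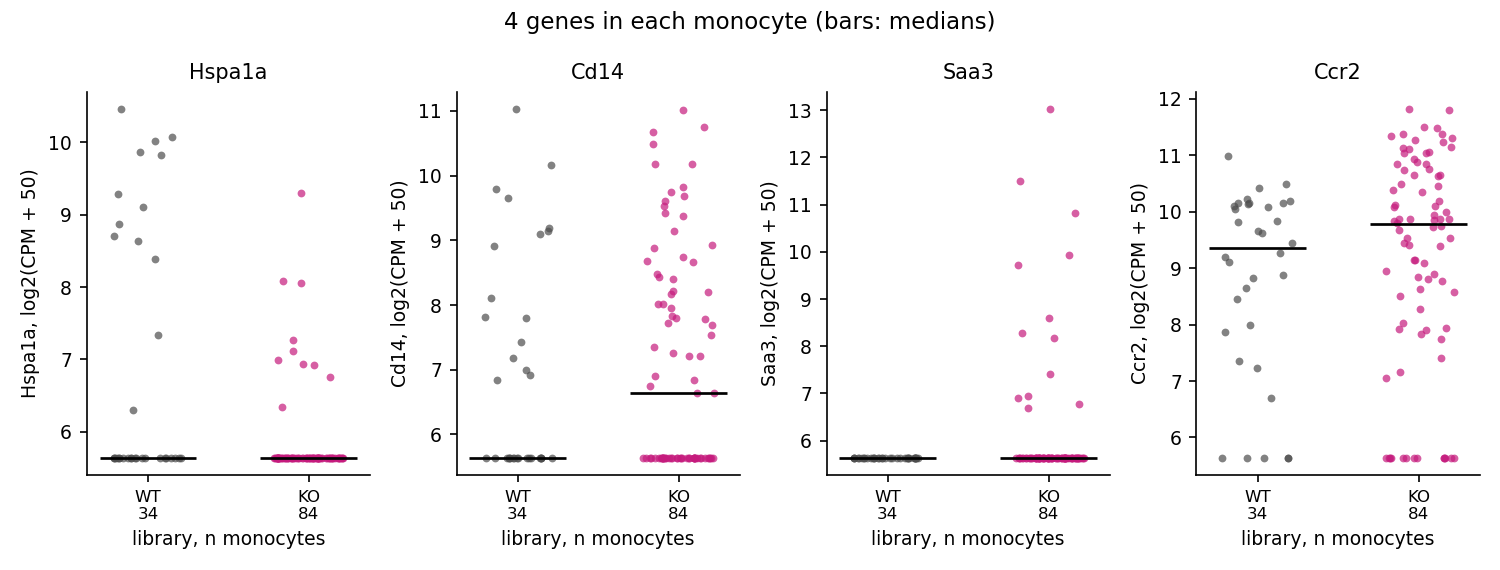
Hspa1a, Cd14, Saa3 and Ccr2 in each of 34 WT and 84 KO monocytes, as log2 of CPM plus 50, with bars for medians; points on the lowest line are cells with no UMI. Hspa1a has more high cells in WT (13 of 34 with a UMI against 10 of 84), Saa3 has a UMI in 13 KO cells and no WT cell, and Cd14 and Ccr2 overlap widely.

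Non-classical genes were lower in the KO sum, with 14 of 17 measured lower, 1 of them at least 2-fold, and a median of -0.31. Pglyrp1, a peptidoglycan-binding protein, was 360 and 119 CPM (-1.28, with 44.8% of the WT UMIs in 1 barcode), Cx3cr1, the fractalkine receptor, 405 and 186 CPM (-0.95), and Treml4 145 and 73.9 CPM (-0.65). Apoc2 was higher in KO at 232 and 404 CPM (0.69). Within Ace-type cells, the set that carries these genes, 11 of 17 were higher in KO, with a median of 0.10. That is near the level of all 1574 genes measured in the set, of which 58.4% were higher, with a median of 0.10. With the sets mixed equally the median of the list over all deep monocytes was -0.12. Microglial Cx3cr1 stood at 5480 CPM in WT and 5320 CPM in KO. Gates of 2 or more of the 7 non-classical genes held 18 of 34 WT (52.9%) and 44 of 84 KO monocytes (52.4%), and 36.7% and 25.6% after thinning.

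The genes of adhesion and vessel exit were mixed. Of 15 measured, 10 were lower in KO, 1 at least 2-fold, with a median of -0.33. Icam1, a ligand of leukocyte integrins, was 178 CPM in WT, 72.4% of it from 1 barcode, and 35.8 CPM in KO (-1.41, and -0.26 to -2.03 over the alternatives). The integrin chains Itga4 (454 and 335 CPM), Itgb1 (351 and 248 CPM) and Itgb2 (388 and 325 CPM) were lower, whereas Selplg, the ligand of P-selectin, was 187 and 299 CPM. Ccr2, chosen by the rule and so only described, was 683 CPM in WT and 1156 CPM in KO, with a median cell at 608 and 828 CPM.

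Ribosomal protein genes and the nuclear genes of oxidative phosphorylation were slightly higher in KO. All 30 ribosomal protein genes were higher, by a median of 0.44, with Rpl13 at 2514 and 3829 CPM and Rplp0 at 1771 and 2696 CPM. In Ly6c2-positive cells the ribosomal median was 0.02, with 18 of 30 higher, and in Ace-type cells, where depths differed most, it was 0.74. All 27 nuclear genes of oxidative phosphorylation were higher, by a median of 0.39, with Cox4i1 at 730 and 1019 CPM and Atp5e at 606 and 844 CPM. Rplp1 differed by 0.48 in monocytes, 0.34 in microglia, -0.01 in T cells and -0.28 in dendritic cells. Among deep monocytes 26 of 27 of the nuclear respiration genes were higher. Of the 11 measured mitochondrially encoded genes 7 were lower in KO, with a median of -0.08, not far from all measured genes (47.6% higher, median -0.02).

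The Fc receptors, which bind antibody, were higher in KO for 6 of 6 measured genes, with a median of 0.33 and Fcgr2b, the inhibitory receptor, furthest at 101 and 251 CPM. In Ly6c2-positive cells 2 of 4 Fc receptors were higher, with a median of 0.004, and in Ace-type cells 4 of 4, with a median of 1.16. Interferon-stimulated genes were higher for 11 of 12, with a median of 0.30: Ifi27l2a was 1176 and 1674 CPM, Isg15 25.7 and 71.7 CPM and Bst2 133 and 211 CPM. With 1 UMI of each excluded gene allowed, the interferon median was -0.11 and 3 of 14 were higher. By cell set, 2 of 9 interferon-stimulated genes were higher in Ly6c2-positive cells (median -0.09) and 6 of 6 in Ace-type cells (median 0.56). Lysosome and phagocytosis genes were close, with 15 of 23 higher and a median of 0.14, and Psap, a saposin precursor, was 2479 and 2428 CPM. Myeloid transcription factors had a median of 0.06 over 18 genes, and Cebpb was 1635 and 2174 CPM. No monocyte met the gate for cycling cells, where a floor of 3 cells is 8.82% in WT and 3.57% in KO and the exact upper limits are 10.3% and 4.30%.

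**Figure D5:**
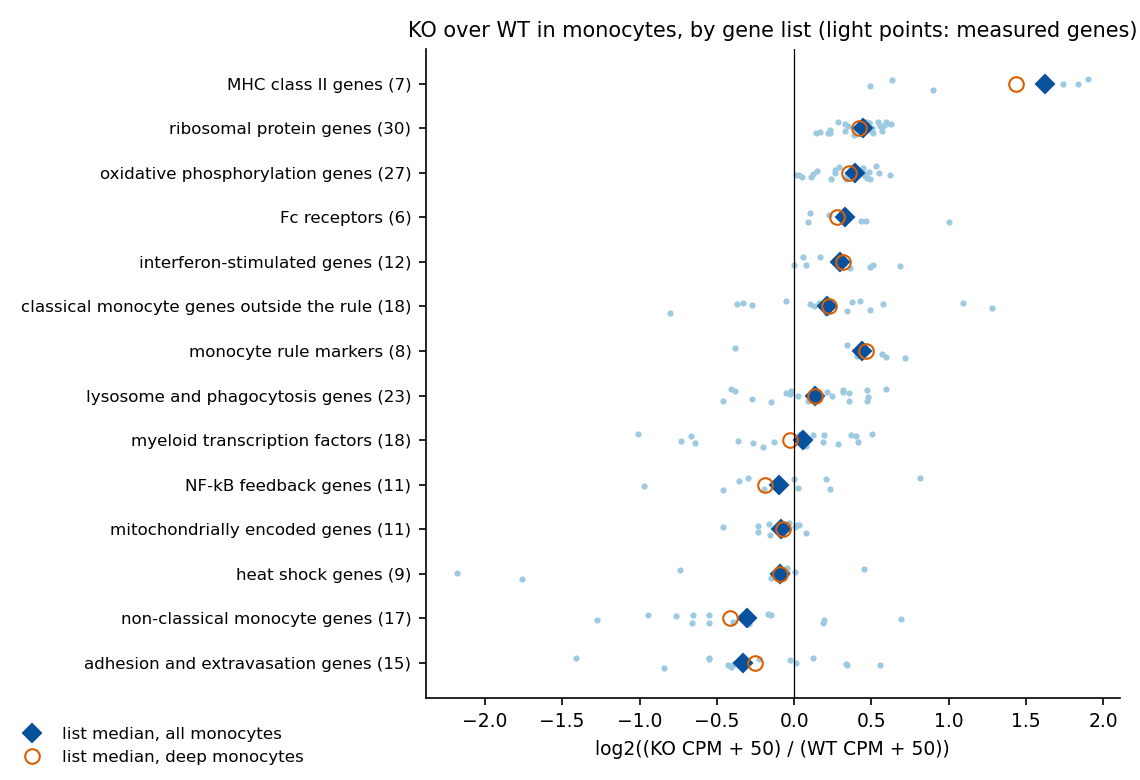
Log2 of KO over WT in monocytes, with 50 CPM added to both, for 14 gene lists, with the number of measured genes in brackets, light points for genes, blue diamonds for the list median over all monocytes and open orange circles for the median over deep monocytes. MHC class II lies furthest right (median 1.63 over all and 1.43 over deep monocytes), ribosomal protein genes lie wholly above 0, and the heat shock median is near 0 with Hspa1a and Hspa1b far to the left.

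The relatives of Fam69c were sparse in monocytes. Dipk1a (Fam69a), a kinase-like protein of the endoplasmic reticulum, was the only measured member, at 86.5 CPM in WT (16 of 34 cells) and 86.9 CPM in KO (48 of 84 cells). Dipk1b had 4 and 5 UMIs, Dipk2a 1 and 9 UMIs, and Dipk2b 1 and 0 UMIs.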

How the data were processed

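The deposited matrices hold whole UMI counts for 32285 genes, with a value for each barcode. The submitters' processing notes name Cell Ranger 4.0.0, mm10, Seurat 3.0 and R 4.0.3. No normalization had been applied to these deposited counts. Counts were summed over the monocytes of each library and scaled to CPM with Python 3.11.15, numpy 2.4.6, scipy 1.17.1 and pandas 2.3.3. Intervals are exact Poisson (CPM) or Clopper-Pearson (shares), and the ratio code was tested on simulated data. Scrublet in scanpy 1.11.5 scored doublets. Its automatic threshold marked none in WT, so the highest scores were called at 0.8% per 1000 barcodes, as an alternative only, which removed 1 monocyte per library.

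The members and gene lists were chosen with earlier results of these data known. Named genes were the 12 highest and 12 lowest ratios without those over 10 times higher in another gate, the 4 most different and 3 most abundant of each list, the rule markers, the Fam69 family, and the 12 genes furthest above like cells with the 20 most abundant. Other genes printed were chosen after their values were seen. The deep set and its 3 cell sets, genes named within them (at most 25% of UMIs from 1 cell), genes compared across gates, the 1000 CPM value for H2-Aa, the motifs and the printed promoters were chosen after values were seen. Of 9 genes looked up, 7 had a RefSeq promoter. Coordinates of genes are from GENCODE M21 (GRCm38).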

Additional observations from a re-analysis of the deposited data

How the results depend on the processing

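No paired analysis was possible because each genotype has 1 library. Each result was recomputed under up to 17 alternatives, of which the deep set, the equal mix of sets, the removal of each gene's top barcode and the removal of barcodes with Cd209a or Flt3 were chosen after seeing the data. Of 561 list medians 485 stayed within the counting interval of the reported value, 67 moved outside it, and 9 of lists at least 2-fold apart changed sign. Of 3739 values of named genes 2877 stayed, 826 moved, and 36 of genes at least 2-fold apart changed sign. Changes of sign among smaller differences are counted with those that stayed or moved. Trimmed-mean scaling moved the median of measured genes from -0.02 to 0.15, and it turned the heat shock median from -0.09 to 0.13 and the NF-kB feedback median from -0.10 to 0.08. Without the filter on barcodes the same 34 and 84 cells met the rule.

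The count of genes at least 2-fold higher in KO was 13 with cells thinned (474 genes measured), 48 with 10 CPM added and 13 with 100 CPM added. The count lower was 95 with each cell weighed the same, 10 with cells thinned, 162 with 10 CPM added, 38 with 100 CPM added and 9 without top barcodes. The log2 ratio of the interferon gate shares was 0.81, and -1.38 with cells thinned (2 cells in each library).

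Among values at least 2-fold apart, those that changed sign belonged mostly to neutrophil and hemoglobin genes, whose sums were largely 1 barcode each. Among deep monocytes the neutrophil list was 0.65, S100a8 2.94, S100a9 0.86, Wfdc21 1.23, the erythroid list -0.43, Hba-a2 -0.69, Hbb-bs -0.35, Hbb-bt -0.50 and Slc26a2 0.0088. With the sets mixed equally they were 0.50, 2.79, 0.72, 1.10, -0.71, -1.03, -0.67, -0.75 and 0.010, and Hba-a1 was -0.094. Without top barcodes the neutrophil list was 0.24, S100a8 2.40, S100a9 0.26, Wfdc21 0.98, the erythroid list -0.58, Hba-a1 -0.43, Hba-a2 -1.17, Hbb-bs -0.55 and Hbb-bt -0.61. With at least 5 markers the neutrophil list was 0.67, S100a8 3.43, S100a9 0.92, Wfdc21 1.36 and Slc1a2 1.33. With each cell weighed the same the erythroid list was -0.58, Hba-a1 -0.75, Hba-a2 -1.09, Hbb-bs -0.27 and Hbb-bt -0.40. With cells thinned the erythroid list was -0.43, Hba-a1 -0.58, Hba-a2 -0.78, Hbb-bs -0.10, Hbb-bt -0.29 and Cd14 -0.32. Without barcodes with Cd209a or Flt3, Slc26a2 was 0.12. For Cd14, Slc26a2 and Slc1a2 the cause was not tested.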

Other observations

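Alarmins and antimicrobial genes took 4.70% of WT and 2.59% of KO monocyte UMIs, and 8 of 14 measured genes were lower in KO, 7 of them at least 2-fold, with a median of -0.82. A single WT barcode held 99.6% of the S100a8 and 99.7% of the S100a9 UMIs, and among deep monocytes 10 of 11 measured genes of the list were higher in KO, with a median of 0.54. Slpi was 101 CPM in WT and 253 CPM in KO over all monocytes. Macrophage differentiation genes were higher in KO for 12 of 16 measured members (median 0.21), yet the tetraspanin Cd9 was 269 CPM in WT and 89.1 CPM in KO. Of all 3519 measured genes 47.6% were higher in KO by any amount, with a median of -0.02. MHC class I genes were near that share, with 5 of 9 higher (median 0.10) and B2m at 2264 and 2034 CPM. NF-kB feedback genes were also not far from it, with 7 of 11 lower (median -0.10, and 0.08 under trimmed-mean scaling). Nfkbiz was at 246 and 101 CPM against Socs3 at 60.8 and 144 CPM. Integrated stress response genes were lower for 6 of 7 (median -0.18), with Atf4 at 86.5 and 40.2 CPM. In the list of cytokines and inflammatory mediators, Il1b was 893 and 799 CPM, Tgfb1 320.4 and 344 CPM, and Tgfbi, a matrix protein induced by TGF-beta, 274 and 545 CPM. Glycolysis and hypoxia genes were higher for 6 of 11 (median 0.22), a count near the share over all measured genes. Gapdh was at 957 and 1311 CPM against the glucose transporter Slc2a1 at 180 and 45.6 CPM, of which 63.6% in WT came from 1 barcode.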
